A study of Mus musculus with 96 samples.

Results

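Yolk sac pre-haematopoietic stem cells (pre-HSCs) of E11.5 (E stands for the embryonic day) were set against fetal liver haematopoietic stem cells (HSCs) of E12.5, with a transcriptome for each cell. Cells were taken by their labels, 16 from each tissue, and those with fewer than 2000 genes detected were left out. This kept 31 of the 96 cells of the series, 15 from liver and 16 from yolk sac, and removed 1 liver cell. All cells came from C57BL/6 mouse embryos and were sorted 1 to a well before cDNA synthesis with a SMART-Seq kit. The yolk sac gate was Ter119-CD11b-CD144+c-kit+EPCR+ and the liver gate Ter119-Sca-1+c-kit+EPCR+. Tissue, day and gate therefore differed together, and their parts in any difference cannot be told apart. Animals and litters are not named in the labels. Each group was therefore treated as 1 sample and described without tests. Values of 48 E11.5 cells of the aorta-gonad-mesonephros (AGM), sorted with the yolk sac gate, and of 16 E14.5 liver cells, gated Ter119-Sca-1+c-kit+CD48-CD150+, are set beside a few results.

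HSCs of the mouse arise from endothelium of the embryo's arteries and then seed the fetal liver, where they expand before moving to the bone marrow. Pre-HSCs are their immediate precursors, which carry endothelial and haematopoietic genes side by side and acquire the ability to repopulate an adult host as they mature. The yolk sac is an early site of blood formation as well, known for primitive red cells, macrophages, megakaryocytes and later progenitors.

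Between 632526 and 1889832 reads were counted on genes in a liver cell and between 845741 and 1922746 in a yolk sac cell, with 18802888 and 22306075 reads in the pools. A median of 4077 genes had a read in a liver cell and 5349.5 in a yolk sac cell. At a fixed 690000 reads per cell, a depth that 14 liver and 16 yolk sac cells reached, the medians were 4178 and 5196.5. Mitochondrial transcripts took a median of 0.571% and 0.637% of reads. Standing apart were 4 cells with 9848 to 10823 genes each, namely yolk sac cells 1, 2 and 3 and liver cell 1, while the next cells had 7686 in yolk sac and 6686 in liver. Results that rest on these cells are given below with and without them. No pair of the 31 cells had identical counts.

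**Figure D1:**
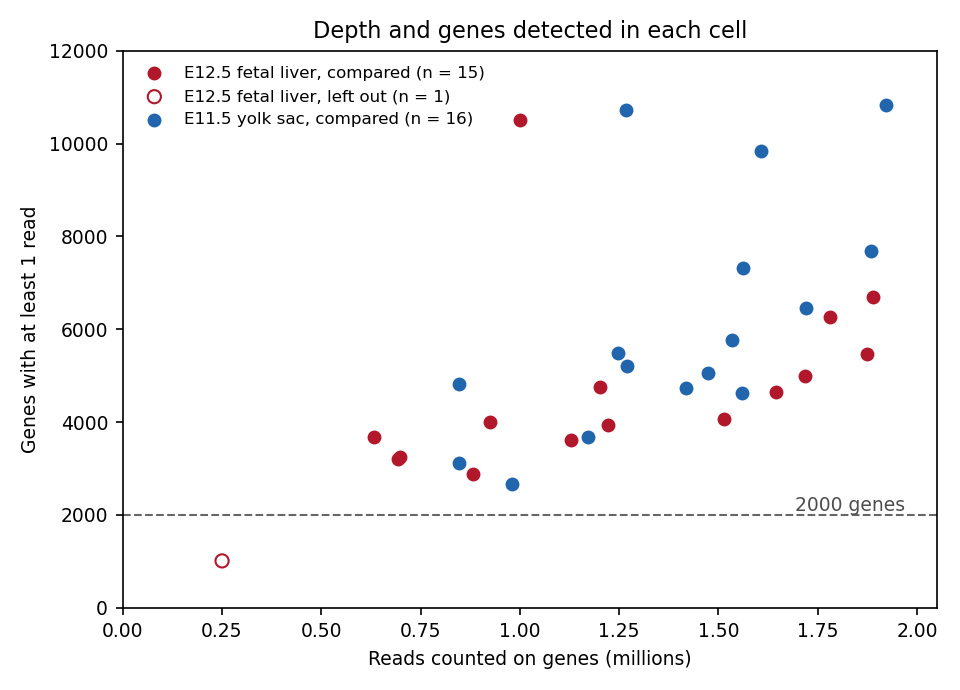
Reads counted on genes (x axis) against genes with at least 1 read (y axis) in each liver cell (red) and yolk sac cell (blue). The open circle below the dashed line is the liver cell with 1011 genes that was left out, and 4 filled points lie above 9000 genes.

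Levels are given as CPM, the counts of a gene scaled to a common total of reads, pooled over the cells of a group, and differences as the log2 ratio of liver over yolk sac after 1 CPM was added to each. That scale understates differences of genes at low levels. Among 12172 genes with at least 30 reads over both groups, 2947 (24.2%) were at least 2-fold higher in liver and 2852 (23.4%) at least 2-fold higher in yolk sac. Counts of list members past 2-fold are to be read beside these shares. The median log2 ratio of these genes was 0.05. A stricter call also required the ratio to stay past 2-fold with each cell left out in turn and the mean log2 level of single cells to differ in the same direction. It held for 1022 genes (8.4%) higher in liver and 1411 (11.6%) higher in yolk sac. Exact 95% intervals for pooled CPM (Poisson) and for shares of cells (Clopper-Pearson) cover counting error only, since the amplified reads carry no molecular identifiers and are not separate molecules.

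Genes read in most cells of both groups mostly stood at like levels. A read was found in at least 75% of the cells of both groups for 1625 genes, and 1479 of these (91.0%) were within 2-fold of each other, which is 12.2% of the 12172 genes. Of the rest, 111 were higher in liver and 35 in yolk sac. Asking for a read in most cells of both groups favours genes high in both, so the 91.0% was partly set by that rule. Over all genes 47.6% were past 2-fold in either direction. There were 523 genes with a read in every one of the 31 cells. Among 10 housekeeping genes none passed 2-fold and the median log2 ratio was -0.08; among 15 enzymes and transporters of glycolysis, 9 were shared, 2 were past 2-fold higher in liver and 1 in yolk sac. Gapdh, a glycolytic enzyme, stood at 5666 CPM in liver and 5753 in yolk sac.

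**Figure D2:**
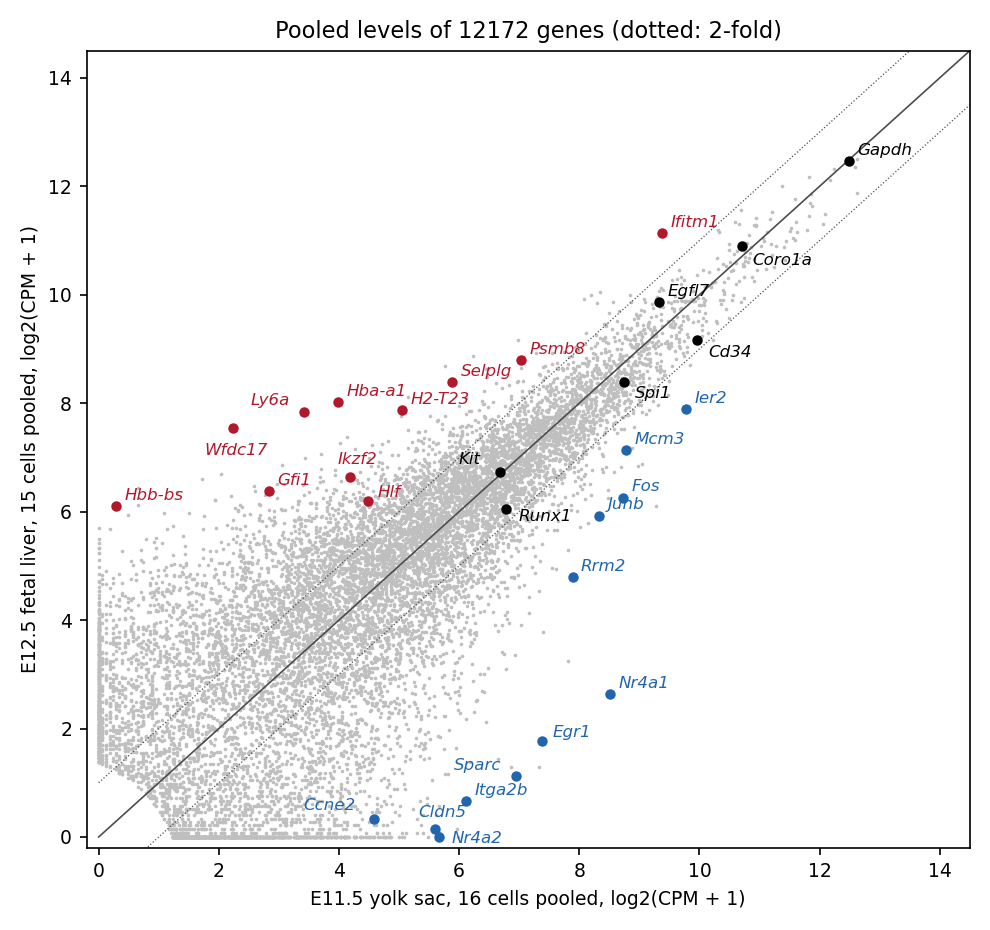
Pooled level of each of 12172 genes in 16 yolk sac cells (x axis) and 15 liver cells (y axis), both as log2(CPM + 1), with dotted lines at 2-fold. Named genes higher in liver are red, those higher in yolk sac blue, and those within 2-fold black.

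The sort genes set the groups apart partly by construction. Ly6a, which encodes Sca-1 and lies on chromosome 15 from 74994877 to 74998031 (GRCm38, minus strand), was in the liver gate and not in the yolk sac gate. Its level in single liver cells was 0 at the lowest, 190 CPM at the median and 1302 at the highest, against 0, 0 and 51.7 in yolk sac cells, so the groups overlapped at their low ends. Ly6a had a read in 12 of 15 liver cells and 6 of 16 yolk sac cells, and the pooled levels were 228.8 and 9.73 CPM, 23.5-fold apart. The log2 ratio of Ly6a was 4.42, and 4.02 to 4.99 with any 1 cell left out. Cdh5, which encodes the endothelial cadherin CD144 of the yolk sac gate, had a read in 7 yolk sac and 3 liver cells, with pooled levels of 13.5 and 3.56 CPM. Its log2 ratio of -1.67 became -3.62 without liver cell 2, which held 95.5% of the liver reads. Kit, the receptor of stem cell factor and a marker of both gates, was read in 12 cells of each group at 105 CPM in liver and 101 in yolk sac. Procr, which encodes EPCR and was gated in both tissues, had a read in 8 liver and 6 yolk sac cells, at 92.0 and 49.4 CPM. The log2 ratio of Procr was 0.88, and it was 2.31 without the 4 cells of over 9000 genes. Ptprc, the pan-leukocyte phosphatase CD45, was read in 12 liver and 9 yolk sac cells at 78.8 and 46.5 CPM, a log2 ratio of 0.75 that was 1.38 without those 4 cells. Itgam, which encodes CD11b, was read in 5 liver and 6 yolk sac cells at 8.72 and 3.86 CPM. Kit and Ptprc were thus read in most cells of both groups, and Ly6a in most liver cells but not in most yolk sac cells. Without the 4 cells of over 9000 genes, however, Ptprc was read in 6 of 13 yolk sac cells. Kit was read at a low level, 1.22 to 7.22 CPM, in liver cells 4, 5, 6, 10 and 11, and at 2.41 and 0.788 CPM in yolk sac cells 9 and 13. Leaving these low reads aside, Kit was read in most yolk sac cells but not in most liver cells.

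Haematopoietic transcription factors held shared members and a subset that stood higher in liver. Of 16 measured, 4 were shared (12.2% of all genes were), 5 were past 2-fold higher in liver (24.2% of all genes) and 0 higher in yolk sac, and the median log2 ratio was 0.57. The counts were 6 and 1 without the 4 cells of over 9000 genes. Spi1, the master factor of myeloid and lymphoid commitment, was read in 14 liver and all 16 yolk sac cells at 337 and 429 CPM. Myb, needed for definitive haematopoiesis, stood at 105 and 73.1 CPM, and Meis1, a Hox cofactor of stem cells, at 93.7 and 80.1. Runx1, which drives the emergence of blood from endothelium, ranged from 0 through a median of 25.8 to 273 CPM in liver cells and from 0 through 90.6 to 255 in yolk sac cells. Its pooled log2 ratio was -0.72, within 2-fold, but it ran from -1.30, which is past 2-fold toward yolk sac, to -0.59 with any 1 cell left out. Lmo2, a bridging factor of blood and endothelium, was read in 15 cells of each group at 547 and 273 CPM, just under 2-fold. Gata2, another factor of blood emergence, was read in 11 liver and 12 yolk sac cells at 36.4 and 66.6 CPM.

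The stricter call toward liver was passed by 4 of these factors. Ikzf2, the Ikaros family member Helios, was read in 13 of 15 liver cells and 9 of 16 yolk sac cells, with medians of 58.5 and 7.66 CPM and highest cells of 484 and 144.2. Its pooled levels were 98.8 CPM (94.3 to 103.4) and 17.2 (15.5 to 18.98), a log2 ratio of 2.46. Gfi1, a repressor that restrains stem cell proliferation, was read in 6 liver and 4 yolk sac cells, at 82.4 and 6.10 CPM. Most yolk sac reads of Gfi1 lay in the cells of over 9000 genes: without these the levels were 79.5 and 1.26 CPM. Lyl1, a partner of the Lmo2 complex, had a log2 ratio of 2.36 that was 1.38 without liver cell 10 and 3.40 without the 4 cells of over 9000 genes. For Zfpm1, the GATA cofactor FOG1, the ratio of 2.54 ranged from 1.82 without liver cell 4 to 3.45 without yolk sac cell 14.

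A list of genes chosen for the identity of HSCs leaned toward liver. The list also held Cd48, whose product was gated against in the E14.5 liver cells. Without the 4 cells of over 9000 genes, the log2 ratio of Cd48 was 0.88, toward liver and within 2-fold. Not every lean toward liver in this list is therefore that of an HSC marker. Of 20 measured, 7 were past 2-fold higher in liver, where 24.2% of all genes were, and 0 in yolk sac, 15 had a ratio above 0, and the median was 0.60. The stricter call toward liver was passed by 2 of the 20, a share near the 8.4% of all genes. The summed level of the list ran from 1614 through 3319 to 5783 CPM in liver cells and from 160 through 1639 to 3101 in yolk sac cells. Of 15 liver cells 9 lay above the highest yolk sac cell, and no yolk sac cell reached the liver median. Ifitm1, a member of the interferon-induced transmembrane family, took much of that sum, with 699 to 4161 CPM in liver cells and 0 to 2505 in yolk sac cells. Its reads may be shared with its near copies Ifitm2 and Ifitm3, since the treatment of such reads is not given in the sources used here. Hlf, a factor whose expression marks HSCs and which lies on chromosome 11 from 90336536 to 90390895 (GRCm38), was read in 12 liver and 8 yolk sac cells. In liver cells Hlf ran from 0 through 62.5 to 539.5 CPM, and in yolk sac cells from 0 through 0.291 to 192.9. The pooled levels of Hlf were 72.4 and 21.2 CPM, and the log2 ratio of 1.72 became 2.53 without yolk sac cell 10. Mecom, a self-renewal factor, was 2.07-fold higher in liver, but its log2 ratio of 1.03 was 0.40 without liver cell 15. In the other direction nothing passed 2-fold, and Cdkn1c, a cell cycle inhibitor, stood at 94.9 and 106 CPM. Median sums of the list in the other groups were 2022 CPM in AGM cells and 2794 in E14.5 liver cells.

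**Figure D3:**
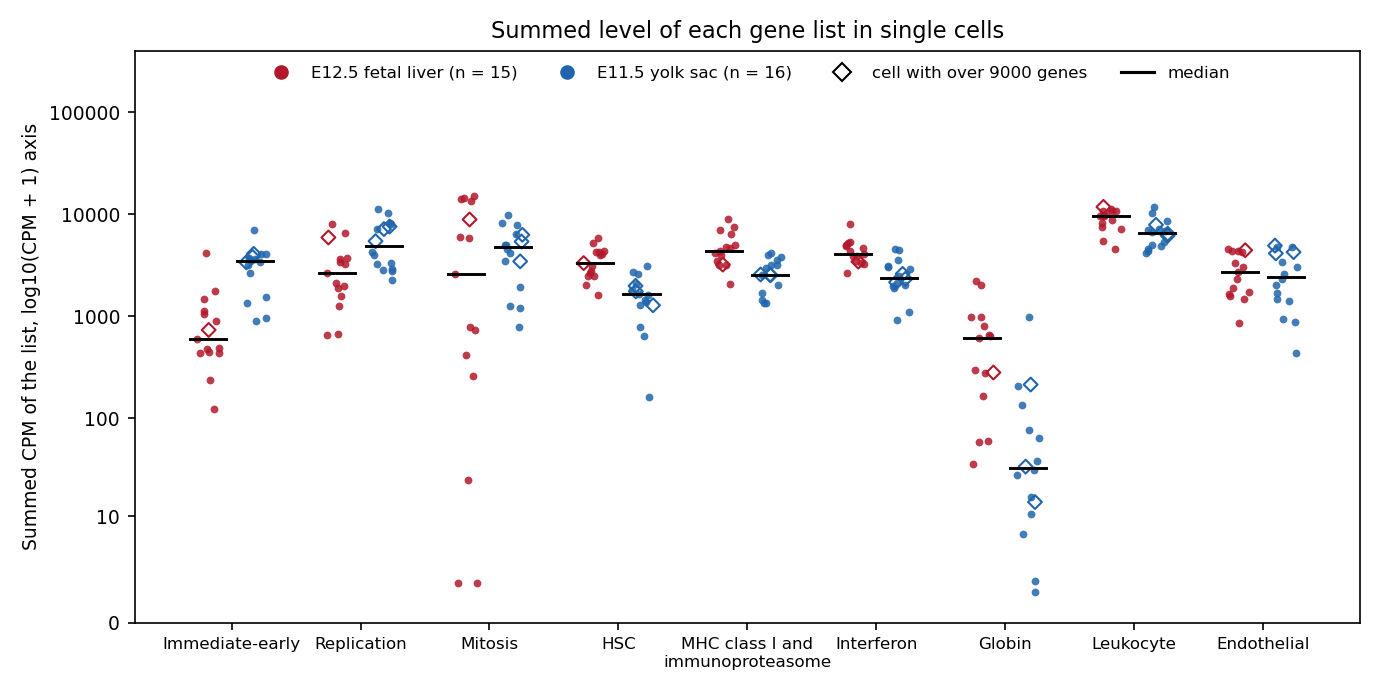
Summed CPM of 9 gene lists in single cells (y axis, log scale with 0 shown), liver red and yolk sac blue, with diamonds for the 4 cells of over 9000 genes and lines at the medians. The immediate-early sum is lower in 9 liver cells than in any yolk sac cell, and the HSC sum is higher in 9 liver cells than in any yolk sac cell.

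General leukocyte genes were shared in part. Of 18 measured, 7 were shared, against 12.2% of all genes, among them Coro1a, an actin regulator, at 1901 and 1674 CPM, and Rac2, a haematopoietic GTPase, at 941 and 969 CPM in liver and yolk sac. Laptm5, a lysosomal protein of blood cells, was read in every liver and every yolk sac cell, at 321 and 484 CPM. In this list 5 genes were past 2-fold higher in liver, a share near the 24.2% of all genes. The stricter call toward liver, met by 8.4% of all genes, was passed by 3 of these. They were Selplg, the selectin ligand PSGL-1, with 334 against 58.1 CPM, the tetraspanin gene Cd53 with 80.6 against 13.9, and the tetraspanin gene Cd37 with 75.3 against 28.3. The log2 ratio of Cd53, 2.46, was 3.64 without yolk sac cell 12. Plek, a protein kinase C substrate of platelets and leukocytes, was the 1 gene past 2-fold toward yolk sac, with a read in 13 yolk sac and 3 liver cells. Its ratio of -1.64 was -3.69 without liver cell 16.

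Gene by gene, integrins and homing receptors differed more than the leukocyte genes did, and mostly toward yolk sac. Their median sums per cell were close, at 969 CPM in liver and 999 in yolk sac, while leukocyte sums were 9597 and 6559. Of 14 integrin and homing genes measured, 10 were past 2-fold higher in yolk sac (23.4% of all genes were) and 1 in liver (24.2%). The median log2 ratio was -1.33. Without the 4 cells of over 9000 genes, 9 of 13 were past 2-fold higher in yolk sac and 1 in liver. Itga2b, the integrin CD41 that marks the first blood cells of the embryo and megakaryocytes, was read in 9 of 16 yolk sac cells and 2 of 15 liver cells. The lowest, median and highest yolk sac cells had 0, 9.42 and 504 CPM, while the highest liver cell had 3.999. The pooled levels were 68.5 (65.2 to 72.1) and 0.585 (0.292 to 1.05) CPM, and the log2 ratio of -5.46 was -4.66 without yolk sac cell 15. Itgb3, its partner in the platelet fibrinogen receptor, was read in 8 yolk sac and 3 liver cells at 24.1 and 2.50 CPM. Itgb2, the common chain of leukocyte integrins, was read in 12 yolk sac and 3 liver cells at 80.2 and 16.8 CPM. The ratio of Itgb2 was -2.19, -2.95 without liver cell 11 and -2.89 without the 4 cells of over 9000 genes; that of Itgb3 was -2.84, and -3.53 without liver cell 1. Itga4, the alpha chain of the VLA-4 receptor for VCAM-1, went the other way, with 75.8 CPM in liver and 24.2 in yolk sac. Its partner chain Itgb1 was shared at 140.9 and 137 CPM, as was Cd47, the signal that restrains phagocytosis, at 511 and 540. The list of platelet and megakaryocyte genes, 8 of them measured and taken as markers of another cell type, summed to 0 to 574 CPM in liver cells and 0 to 1154 in yolk sac cells. The median sums were 107.5 and 195.7 CPM. Of the 8, 3 were past 2-fold higher in yolk sac (23.4% of all genes) and 1 in liver (24.2%), with a median log2 ratio of -0.29. Without the 4 cells of over 9000 genes these counts were 3 and 2. The defining gene Pf4 stood at 15.6 and 12.6 CPM in liver and yolk sac and Vwf at 26.2 and 39.3. The part of these platelet genes in the CD41 difference was not tested.

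**Figure D4:**
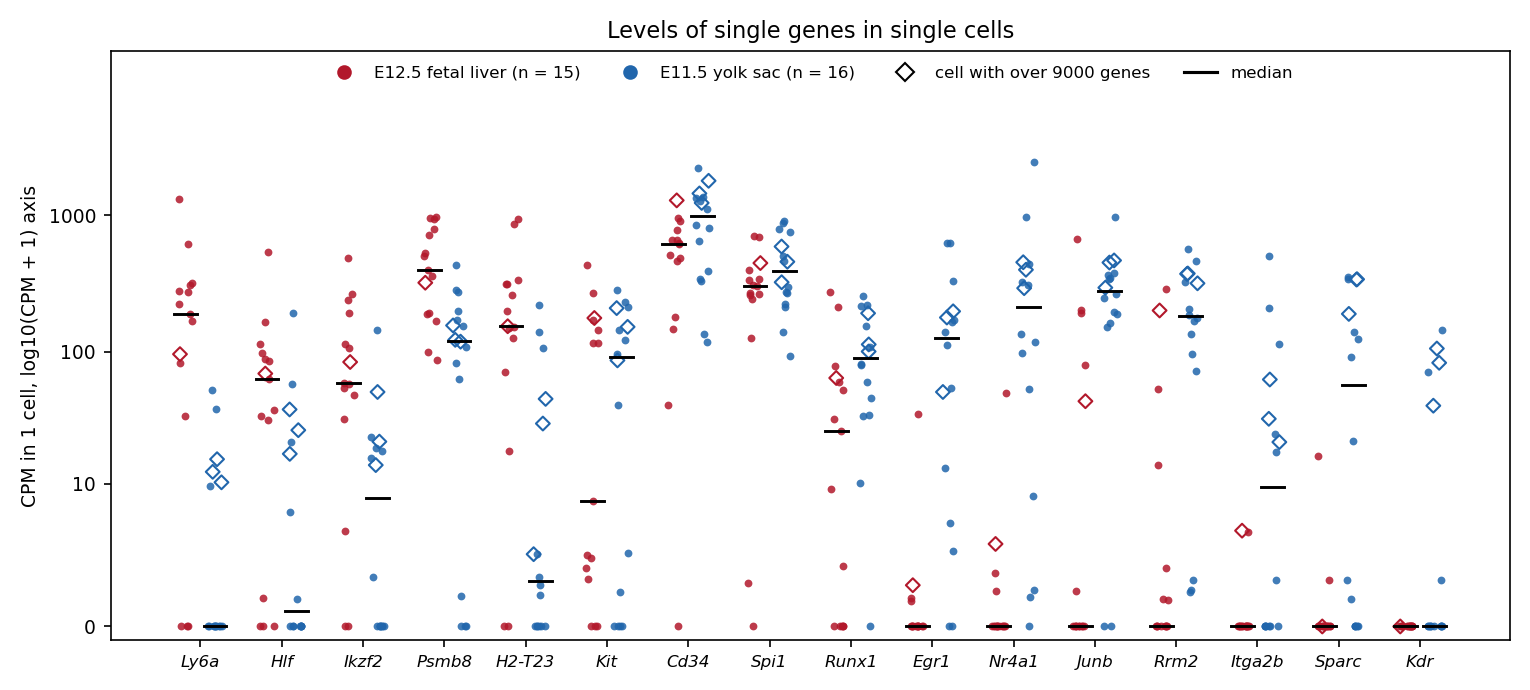
CPM of 16 genes in single cells (y axis, log scale with 0 shown), liver red and yolk sac blue, with diamonds for the 4 cells of over 9000 genes and lines at the medians. Egr1 and Nr4a1 have a read in 4 of 15 liver cells, against 14 and 15 of 16 yolk sac cells, while Cd34 and Spi1 overlap across most of their ranges.

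Lymphoid signalling genes were mostly higher in liver. Of 11 measured, 7 were past 2-fold higher in liver (24.2% of all genes were) and 3 in yolk sac (23.4% of all genes), with a median of 1.33. Il2rg, the common cytokine receptor chain, was read in 11 liver and 13 yolk sac cells, with medians of 326 and 134 CPM and pooled levels of 339 and 133. Ltb, a lymphotoxin subunit, stood at 310 and 104 CPM, and the kinase gene Lck at 75.8 and 19.3. Jak3, the kinase that signals from Il2rg, stood at 98.2 and 36.7 CPM, and its log2 ratio of 1.396 was 2.35 without yolk sac cell 4. Of the 3 genes higher in yolk sac, Il7r, the interleukin-7 receptor, was read in 3 yolk sac cells and 1 liver cell, with a ratio of -1.43 that was 0.19 without yolk sac cell 5. Among 12 myeloid genes 5 were past 2-fold higher in liver and 2 in yolk sac, beside the same 24.2% and 23.4% of all genes. The 1 that passed the stricter call was Csf1r, the macrophage growth factor receptor, with 7.62 CPM in yolk sac and 0.213 in liver. Its ratio of -2.83 was -2.03 without yolk sac cell 9. Mpo and Prtn3, enzymes of granules, were within 2-fold at 294 and 359, and 469 and 234.5 CPM, in liver and yolk sac. Among 10 macrophage genes 3 had at least 30 reads, of which 2 were past 2-fold higher in liver and 0 in yolk sac. The sums of the 10 reached 322 CPM in liver and 77.6 in yolk sac cells. The complement gene C1qb was read in 1 liver cell and in 0 of 16 yolk sac cells, a count that allows a share of cells with a read of up to 18.75% (3 of 16) and does not limit the share of cells that express the gene. Hdc, a histamine-forming enzyme of basophils and mast cells, was read in 5 liver cells and 1 yolk sac cell at 73.2 and 2.82 CPM, with a ratio of 4.28 that was 3.15 without liver cell 15 and 6.21 without yolk sac cell 1.

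Genes of antigen presentation stood higher in liver, and interferon genes leaned the same way. In the MHC class I and immunoproteasome list 12 of 13 measured genes had a ratio above 0, and the median was 0.98. Of the 13, 6 were past 2-fold higher in liver (24.2% of all genes) and 0 in yolk sac (23.4%). The summed level ran from 2070 through 4379 to 8954 CPM in liver cells and from 1340 through 2564 to 4168 in yolk sac cells, with 8 liver cells above the highest yolk sac cell. Psmb8, a catalytic subunit that replaces its constitutive counterpart in the immunoproteasome, lies on chromosome 17 from 34197721 to 34201454 (GRCm38). It was read in all 15 liver cells, at 86.4 to 967 CPM, and in 13 of 16 yolk sac cells, at 0 to 431, with medians of 399 and 120.5. Its pooled levels were 444 CPM (434 to 453) and 130 (125 to 134), a log2 ratio of 1.77 that stayed between 1.57 and 1.98 with any 1 cell left out. Psmb9, its companion subunit, stood at 120 and 36.04 CPM, and Tap2, a subunit of the peptide transporter, at 54.7 and 13.1. The ratio of Tap2, 1.98, was 1.38 without liver cell 11 and 3.32 without yolk sac cell 13. H2-T23, the nonclassical molecule Qa-1, was read in 13 liver and 10 yolk sac cells at 232.5 and 32.3 CPM. B2m, the light chain of class I molecules, was just past 2-fold at 933 and 463 CPM, whereas H2-D1, a classical heavy chain, was shared at 510 and 494. Reads of the H2 genes may be split among near-identical copies. The activator genes Psme1 and Psme2 were shared as well.

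Of 16 interferon genes 5 were past 2-fold higher in liver, a share not far from the 24.2% of all genes, and 1 in yolk sac, and the median was 0.72. The stricter call toward liver was passed by 3 of the 16. The median sum of the list was 4101 CPM in liver and 2396 in yolk sac cells, and 6 liver cells had a higher sum than any yolk sac cell. In the E14.5 liver cells that median was 2609 CPM, below the 2816 of the AGM cells. Irf2 and Irf7, interferon regulatory factors, stood at 67.5 and 51.2 CPM in liver and 18.7 and 14.2 in yolk sac. The ratio of Irf7, 1.78, was 2.49 without yolk sac cell 6. Ifnar1, a chain of the type I interferon receptor, was the exception: it was read in 6 yolk sac cells and in liver cell 1 alone, at 39.05 and 3.94 CPM, while its partner Ifnar2 was shared at 154.2 CPM in liver and 121 in yolk sac. The ratio of Ifnar1, -3.02, was -5.32 without liver cell 1. The E14.5 liver cells had a median class I sum of 3531 CPM and the AGM cells of 2063, so the yolk sac median lay between those of the AGM and of both liver groups. For Psmb8 the pooled levels in AGM and E14.5 liver were 42.9 and 287 CPM.

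RefSeq promoter windows (GRCm38.p6), 250 bases before to 50 after the gene start, were at hand for 10 of the 11 class I and interferon genes past 2-fold toward liver. They were searched on both strands for the interferon-stimulated response element, taken as GAAA, any 2 bases and GAAA, and 5 held it (50%): H2-T23, B2m, Irf2, Ifitm2 and Ifit1. The share among the first windows of 27025 genes was 3.49%. Members of the 2 lists not past 2-fold were not counted, so this share is not tied to the difference between the groups. A match describes letters and not a bound site. The windows of B2m and H2-T23 are shown because these are the class I genes with the element, which is in capitals and reads as its reverse complement in H2-T23:
B2m (GRCm38.p6, chr2:122147437-122147736, plus strand): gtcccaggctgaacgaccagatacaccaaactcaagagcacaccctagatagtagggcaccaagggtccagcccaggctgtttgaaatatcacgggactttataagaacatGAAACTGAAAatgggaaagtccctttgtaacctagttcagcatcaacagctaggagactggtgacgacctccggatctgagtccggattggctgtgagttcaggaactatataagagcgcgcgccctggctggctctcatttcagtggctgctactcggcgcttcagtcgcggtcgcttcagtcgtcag
H2-T23 (GRCm38.p6, chr17:36032652-36032951, minus strand): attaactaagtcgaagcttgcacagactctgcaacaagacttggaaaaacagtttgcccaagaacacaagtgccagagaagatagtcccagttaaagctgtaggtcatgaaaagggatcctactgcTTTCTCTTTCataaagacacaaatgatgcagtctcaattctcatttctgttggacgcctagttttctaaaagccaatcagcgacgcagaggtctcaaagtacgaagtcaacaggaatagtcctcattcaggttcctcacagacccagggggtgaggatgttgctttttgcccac

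Globin transcripts were higher in liver. All 7 globin genes were past 2-fold (24.2% of all genes toward liver), 6 by the stricter call (8.4%), with a median log2 ratio of 3.12. The sums ran from 35.02 through 609 to 2217 CPM in liver cells and from 1.02 through 31.4 to 983 in yolk sac cells. Hbb-bs, an adult beta globin, was read in 11 liver and 2 yolk sac cells at 67.8 and 0.224 CPM, and its ratio of 5.81 was 4.997 without liver cell 2. Hbb-y, an embryonic beta-like globin, was read in 7 liver and 8 yolk sac cells at 215.7 and 31.9 CPM, and its ratio of 2.72 was 4.35 without yolk sac cell 12 and 1.91 without liver cell 11. That cell also held most yolk sac reads of Hba-a1, an alpha globin whose ratio of 4.03 was 6.06 without it and 3.14 without liver cell 2. The alpha copies Hba-a1 and Hba-a2, like Hbb-bs and Hbb-bt, are nearly identical, so the split of reads between them is uncertain. Other erythroid genes did not form a single direction, with 3 of 6 past 2-fold higher in liver (24.2% of all genes were) and 1 in yolk sac (23.4%). Epor, the erythropoietin receptor, was read in 3 liver and 2 yolk sac cells at 44.4 and 0.941 CPM, and its ratio of 4.55 was 5.25 without yolk sac cell 1. Tfrc, the transferrin receptor, was higher in yolk sac, with a read in 10 cells against 4 and levels of 29.6 and 4.202 CPM. Globin is also a marker of red cells, and its part in the other differences was not tested.

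Immediate-early genes stood higher in yolk sac, and across most of its cells. These genes are switched on at once by growth factors, stress and other stimuli, before any new protein is made, and most encode transcription factors. Of 21 measured, 15 were past 2-fold higher in yolk sac (23.4% of all genes), each of the 15 by the stricter call (11.6%). Only 1, Cebpd, was past 2-fold higher in liver (24.2%), at a ratio of 1.00 that was 0.20 without liver cell 11. The median log2 ratio was -2.40, and -2.47 with the 4 genes that had no liver read set at their bound. Without the 4 cells of over 9000 genes, 14 of 20 were past 2-fold higher in yolk sac and 0 in liver. The summed level ran from 123 through 603 to 4134 CPM in liver cells and from 890 through 3483 to 7023 in yolk sac cells. Of 15 liver cells 9 lay below the lowest yolk sac cell, and all 16 yolk sac cells lay above the liver median. Liver cell 9 held the sum of 4134, and the next liver cell had 1751. AGM cells had a median sum of 3189 CPM, and E14.5 liver cells of 705.

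Nr4a1, an orphan nuclear receptor on chromosome 15 from 101254269 to 101274795 (GRCm38), had 0, 214.4 and 2432 CPM in the lowest, median and highest yolk sac cells. In liver the lowest and median cells had 0 and the highest 49.2. It was read in 15 of 16 yolk sac cells (93.8%, interval 69.8% to 99.8%) and 4 of 15 liver cells (26.7%, 7.79% to 55.1%). Pooled levels of Nr4a1 were 365 CPM (357 to 373) and 5.21 (4.23 to 6.35), a log2 ratio of -5.88 that was -8.14 without liver cell 2, which held 94.9% of the liver reads. With all cells thinned to 690000 reads the shares were 81.2% and 28.6%. Its relative Nr4a2 was read in 12 yolk sac cells at 49.8 CPM and in 0 of 15 liver cells. That level was 312-fold above a floor of 3 reads in the liver pool, a figure that covers counting error only. The count of 0 liver cells allows a read in up to 20% of liver cells (3 of 15). Egr1, a zinc finger factor induced by growth factors, ranged from 0 through 126 to 631 CPM in yolk sac cells, and 11 of 15 liver cells had no read. The ratio of Egr1, -5.62, was -7.15 without liver cell 7, and its pooled levels were 66.5 CPM in AGM and 0.340 in E14.5 liver. Btg2, an antiproliferative gene, stood at 115 and 1.44 CPM in yolk sac and liver, with a ratio of -5.57 that was -6.50 without liver cell 1.

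Among genes of the AP-1 family, Fos, Fosb, Fosl2 and Junb were higher in yolk sac and Jun and Jund were not past 2-fold. Fos was read in 14 yolk sac and 5 liver cells at 423 and 75.6 CPM, with a ratio of -2.47 that was -4.07 without liver cell 14. Junb was read in 14 and 6 cells at 320 and 59.8 CPM, with a ratio of -2.40 that was -3.11 without liver cell 9. Fosb had 2 reads in liver, so its ratio of 182.1 carries a counting interval of 50.1 to 1508. Atf3, a stress-induced factor, and Klf4 had 0 liver reads and stood at 43.8 and 25.9 CPM in yolk sac, each in 6 cells. These levels were 275-fold and 162.4-fold above the floor of 3 liver reads, which covers counting error only. On the log2 scale Atf3 moved from -5.49 to -4.56 without yolk sac cell 7, and Klf4 from -4.75 to -3.95 without yolk sac cell 11. Jund was shared at 49.9 CPM in liver and 59.0 in yolk sac, and Jun stood at 67.0 and 40.6 CPM, a ratio of 0.71. Feedback genes of the same response were higher in yolk sac too. Zfp36, which destabilises messenger RNA, stood at 164.9 CPM in yolk sac and 41.2 in liver, and Dusp1, a phosphatase of MAP kinases, at 263 and 84.5. The ratio of Dusp1 was -1.62, and -2.37 without liver cell 9. Ier2 was read in all 16 yolk sac cells, at 285 to 1611 CPM, and in 13 liver cells, at 0 to 1125.

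Promoter windows were at hand for 13 of the 15 immediate-early genes past the stricter call. Members of the list not past that call were not counted, so the shares below are not tied to the difference between the groups. The replication windows, by contrast, are from all measured genes of their list. The core TGACG of the cyclic AMP response element, on either strand, was in 9 of 13 (69.2%), against 21.02% of all windows. It was also in 6 of 17 windows of replication genes (35.3%) and in 4 of the 10 class I and interferon windows (40%), both above the share of all windows. The full element TGACGTCA, which contains that core, was in Dusp1 and Btg2 (15.4%), against 1.88%. Windows of Btg2, with the full element in capitals, and of Nr4a1, with 4 such cores read as CGTCA on the strand shown, are given because both genes hold the motif and have ratios beyond -5:
Btg2 (GRCm38.p6, chr1:134079106-134079405, minus strand): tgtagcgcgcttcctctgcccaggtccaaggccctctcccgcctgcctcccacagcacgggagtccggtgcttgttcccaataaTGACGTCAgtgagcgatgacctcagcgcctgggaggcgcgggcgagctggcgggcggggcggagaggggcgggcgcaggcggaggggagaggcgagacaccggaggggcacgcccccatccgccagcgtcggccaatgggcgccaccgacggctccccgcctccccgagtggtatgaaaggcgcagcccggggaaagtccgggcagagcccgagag
Nr4a1 (GRCm38.p6, chr15:101266596-101266895, plus strand): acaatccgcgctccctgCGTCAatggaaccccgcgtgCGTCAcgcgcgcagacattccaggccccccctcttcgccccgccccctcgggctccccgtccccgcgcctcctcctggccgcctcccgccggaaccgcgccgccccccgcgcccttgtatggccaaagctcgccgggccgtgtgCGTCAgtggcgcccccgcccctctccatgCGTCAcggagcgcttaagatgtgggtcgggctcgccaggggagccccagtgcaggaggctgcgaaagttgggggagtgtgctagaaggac

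Genes of DNA replication stood higher in yolk sac. All 21 had a ratio below 0, with a median of -0.98. Of the 21, 10 were past 2-fold higher in yolk sac (23.4% of all genes) and 0 in liver (24.2%). The summed level ran from 660 through 2636 to 8044 CPM in liver cells and from 2274 through 4866 to 11174 in yolk sac cells, and 7 liver cells lay below the lowest yolk sac cell. Rrm2, the regulated subunit of ribonucleotide reductase, lies on chromosome 12 from 24708241 to 24714146 (GRCm38) and was read in all 16 yolk sac cells and 7 of 15 liver cells. Yolk sac cells ran from 0.788 through 182.4 to 567.5 CPM and liver cells from 0 through 0 to 291. Its pooled levels were 236 (230 to 243) and 26.7 (24.4 to 29.1) CPM, and its ratio of -3.10 was -3.73 without liver cell 1. Ccne2, an S phase cyclin, was read in 11 yolk sac cells and 1 liver cell at 23 and 0.266 CPM. The helicase subunit Mcm3 was read in 16 and 12 cells at 437 and 140 CPM, and Pcna, the polymerase clamp, in 16 and 12 cells, with a ratio of -1.31. Mcm5, Mcm6, Mcm7 and Tyms were shared, with ratios from -0.86 to -0.65. The AGM and E14.5 liver medians of the list were 4407 and 6826 CPM, so the E12.5 liver had the lowest median of the groups.

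Mitotic genes did not follow replication. Of 20 measured, 4 were past 2-fold higher in liver, where 24.2% of all genes were, and 0 in yolk sac. The stricter call toward liver, met by 8.4% of all genes, was passed by 1. The median ratio of pooled levels was 0.55, yet the median cell had a sum of 2590 CPM in liver and 4762 in yolk sac. Liver cells were spread wider. Of these, 6 lay below the lowest yolk sac cell, at 789 CPM, and 4 above the highest, at 9720. Cenpe, a kinetochore motor, was read in 9 liver and 10 yolk sac cells at 156.2 and 55.9 CPM and was the 1 gene past the stricter call, with a ratio of 1.47 that was 2.40 without the 4 cells of over 9000 genes. Cdk1, the mitotic kinase, was read in 11 liver and 15 yolk sac cells at 681 and 566 CPM. Mki67, a proliferation marker, stood at 136 and 132 CPM in 7 and 13 cells.

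An E2F element, TTTGGCGC or TTTCGCGC on either strand, was in 6 of the 17 replication genes with a window (35.3%), against 0.833% of all windows. They were Mcm3, Mcm5, Mcm6, Mcm7, Cdt1 and Pola1. The E2F element was in 1 of the 13 immediate-early and 1 of the 10 class I and interferon windows, and the interferon-stimulated element in 1 of 13 immediate-early and 0 of 17 replication windows. The serum response motif CArG, also searched, was in 1 of 13, 1 of 17 and 0 of 10 windows of the immediate-early, replication, and class I and interferon genes, against 1.57% of all windows. The windows of Mcm3, past 2-fold, and Mcm5, shared, show the element in capitals, in Mcm5 as overlapping matches on both strands:
Mcm3 (GRCm38.p6, chr1:20820263-20820562, minus strand): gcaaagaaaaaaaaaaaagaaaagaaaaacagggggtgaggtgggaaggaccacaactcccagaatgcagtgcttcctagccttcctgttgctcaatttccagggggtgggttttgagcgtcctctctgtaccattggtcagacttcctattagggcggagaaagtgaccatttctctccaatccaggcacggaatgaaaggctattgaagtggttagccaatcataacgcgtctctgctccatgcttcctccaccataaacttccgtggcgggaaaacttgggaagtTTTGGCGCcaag
Mcm5 (GRCm38.p6, chr8:75109259-75109558, plus strand): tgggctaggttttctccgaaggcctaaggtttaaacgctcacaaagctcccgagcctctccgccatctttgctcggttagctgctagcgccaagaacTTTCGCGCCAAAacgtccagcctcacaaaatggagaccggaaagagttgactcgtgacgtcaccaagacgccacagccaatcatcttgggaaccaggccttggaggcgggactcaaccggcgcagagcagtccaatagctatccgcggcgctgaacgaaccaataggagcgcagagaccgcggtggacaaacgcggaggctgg

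Endothelial genes divided. Of 27 measured, 10 were past 2-fold higher in yolk sac (23.4% of all genes were) and 5 in liver (24.2% of all genes). The median log2 ratio was -0.48. Without the 4 cells of over 9000 genes the counts among 22 were 4 and 8, and the median turned to 0.41; without yolk sac cell 1 alone it was 0.08. The summed levels overlapped widely, at 867 to 4524 CPM in liver cells and 437 to 4921 in yolk sac cells. Egfl7, a secreted endothelial factor, was read in every cell of both groups at 931 CPM in liver and 644 in yolk sac. Cd34, a sialomucin of endothelium and progenitors, was read in 14 liver and 16 yolk sac cells at 572 and 999 CPM. Receptors and junction genes were among those higher in yolk sac. Kdr, the receptor of vascular endothelial growth factor, was read in 6 yolk sac cells at 32.8 CPM and in 0 liver cells. Its level was 205.4-fold above the floor of 3 liver reads, for counting error only. Without the 4 cells of over 9000 genes Kdr was read in 3 of 13 yolk sac cells at 20.5 CPM. Cldn5, a tight junction protein, was read in 6 yolk sac cells at 47.3 CPM, with 2 reads in liver cell 1, a ratio of 445 with a counting interval of 123 to 3680. Plvap, a component of endothelial diaphragms, was read in 10 yolk sac and 5 liver cells at 142.97 and 20.6 CPM. Its ratio of -2.74 lay between -3.33 without liver cell 15 and -2.14 without yolk sac cell 8. Sox17 and Sox18, factors of arterial and general endothelium, were higher in liver at 32.7 and 58.2 CPM, against 3.50 and 10.7, but were read in 3 and 5 liver cells. Without the cell that moved each most the ratio of Sox17 was 1.21 (liver cell 5) in place of 2.90 and that of Sox18 was 1.47 (liver cell 3) in place of 2.34. They were 4.99 and 5.81 without the 4 cells of over 9000 genes.

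Arterial, venous and matrix genes were higher in yolk sac, and much of this lay in few cells. Over all genes 23.4% were past 2-fold higher in yolk sac. Of 11 arterial and Notch pathway genes 7 were past 2-fold higher in yolk sac, with a median of -2.29, but without yolk sac cell 1 the median was 0.00, and without the 4 cells of over 9000 genes 3 of 6 passed. Hes1, a Notch target, was read in 9 yolk sac and 4 liver cells at 72.7 and 11.1 CPM, and its ratio of -2.61 was -1.37 without yolk sac cell 10 and -3.24 without liver cell 2. Of 7 venous and lymphatic genes 6 were past 2-fold higher in yolk sac, but without those 4 cells 1 gene kept 30 reads. Without them Ephb4, a venous receptor, turned from a ratio of -1.83 to 0.64, with no yolk sac read left. Of 12 matrix genes 9 were past 2-fold higher in yolk sac, and 5 of 9 without those cells. Sparc, a matrix glycoprotein, was read in 11 yolk sac cells (68.8%, 41.3% to 89.0%) and 2 liver cells (13.3%, 1.66% to 40.5%). The lowest, median and highest yolk sac cells had 0, 56.5 and 355 CPM of Sparc, and the pooled levels were 123 and 1.17, with a ratio of -5.84 that was -6.80 without liver cell 5. Without the 4 cells they were 77.3 and 1.24. Mmp2, a gelatinase, was read in 7 yolk sac cells at 62.2 CPM and in no liver cell, 390-fold above the floor of 3 liver reads. Its log2 ratio of -5.98 was -5.26 without yolk sac cell 15.

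Gene by gene, markers of visceral endoderm and mesenchyme were mostly higher in yolk sac. Globin and macrophage genes, which mark other cell types as well, leaned toward liver instead. A ratio past 2-fold toward yolk sac was found for 23.4% of all genes. Of 9 visceral endoderm genes 7 were past 2-fold higher in yolk sac, with per-cell sums of 49.7 to 8594 CPM in liver and 67.8 to 5676.5 in yolk sac that were mostly Apoe, shared at 2120 and 2131 CPM. The defining gene Afp was read in 7 yolk sac cells at 48.2 CPM and in 2 liver cells at 0.319, and its ratio of -5.22 was -2.64 without yolk sac cell 3; Ttr and Apoa4 were read in that cell alone. Of 7 mesenchymal genes 6 were past 2-fold higher in yolk sac, all 6 at 0 reads in liver, with sums of 0 to 448 CPM in liver cells, from Postn above all, and 0 to 273 in yolk sac cells. Acta2, smooth muscle actin, was read in 4 yolk sac cells at 25.6 CPM, and its ratio of -4.73 was -4.05 without yolk sac cell 6 and -3.95 without the 4 cells of over 9000 genes. When those 4 cells were left out, 5 of 7 measured endoderm and 3 of 4 mesenchymal genes were past 2-fold. Their part in the matrix and endothelial differences was not tested. Of 10 hepatocyte genes 3 (Fgb, Hnf4a and Itih2) were among the genes counted, and none of these reached 30 reads. The others, Alb among them, were absent from the counts and could not be judged.

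Fetal and imprinted growth genes held members higher in each group and some that were shared. Over all genes 24.2% were past 2-fold higher in liver and 23.4% in yolk sac. The counts in these small lists, and in the Hox list, were not read as a trait of the lists. Of 7 genes of the Lin28b and Hmga2 axis, which marks fetal as opposed to adult stem cells, 2 were past 2-fold higher in yolk sac and 1 in liver. Lin28b, an RNA-binding regulator of let-7, was read in 7 liver and 13 yolk sac cells at 40.4 and 48.4 CPM. Its target Hmga2, a chromatin protein of self-renewal, was read in every cell of both groups and was 2.27-fold higher in liver, at 204.4 against 90.0 CPM. Hmga1 was shared at 301 and 475 CPM. Igf2bp1, which binds growth factor messages, was read in 15 yolk sac and 7 liver cells at 44.3 and 17.3 CPM, and Arid3a in 9 and 3 cells at 21.2 and 2.34. Among 13 imprinted genes 2 were past 2-fold in each direction. The growth factor Igf2 (291 and 380 CPM), the noncoding H19 (162.9 and 258) and Gnas (310 and 381) were shared, and Dlk1 stood at 332 and 352. Grb10, a brake on insulin and growth factor signalling, was higher in liver, with a read in 11 against 5 cells and levels of 63.1 and 6.55 CPM, and its ratio of 3.09 was 3.71 without yolk sac cell 4. Mest, a paternally expressed gene of mesoderm, was read in 6 yolk sac cells at 50.5 CPM and had 1 liver read; its ratio of -5.61 was -4.44 without yolk sac cell 2 and -2.28 without the 4 cells of over 9000 genes. Among 9 Hox genes 2 were past 2-fold higher in liver and 3 in yolk sac. Hoxa9, a stem cell factor, was within 2-fold at 95.9 and 64.5 CPM, Hoxa10 was higher in liver at 20.7 against 3.05 (a ratio of 2.42 that was 1.52 without liver cell 7), and Hoxa4 was read in 5 yolk sac cells and in 0 liver cells.

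**Figure D5:**
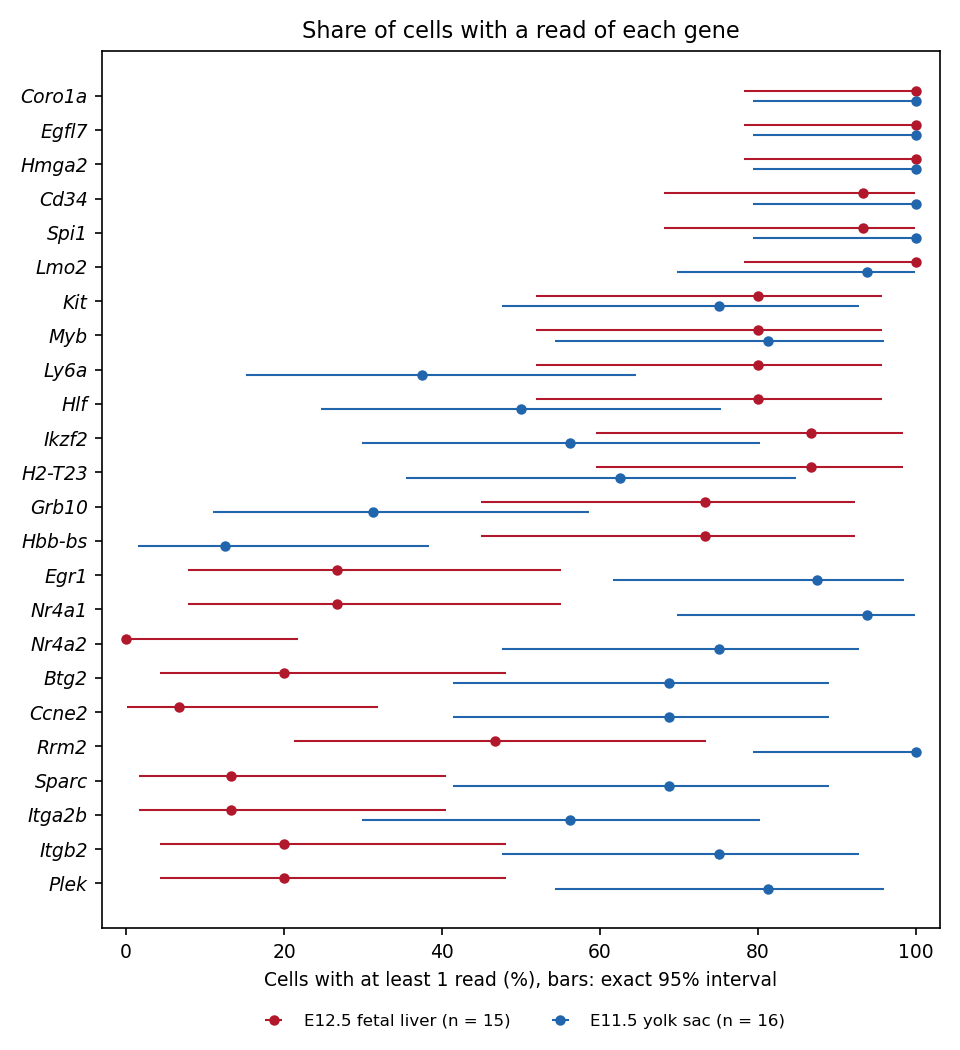
Share of cells with at least 1 read (x axis, %) for 24 genes in 15 liver cells (red) and 16 yolk sac cells (blue), with exact 95% intervals. Nr4a2 has a read in 0 liver cells and 75% of yolk sac cells, while Coro1a, Egfl7 and Hmga2 have one in every cell of both groups.

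Beyond the lists, the widest ratios named further genes in each direction. Toward liver, Fam134b, a receptor for turnover of the endoplasmic reticulum, was read in 8 liver and 3 yolk sac cells at 69.1 and 0.583 CPM, a log2 ratio of 5.47. Wfdc17, a secreted inhibitor-like protein, was read in 10 and 6 cells at 185.7 and 3.72 CPM, and its ratio of 5.31 was 4.44 without liver cell 9. Samd9l and Irgm1, both interferon-inducible, stood at 53.3 and 126 CPM in liver against 3.41 and 9.82 in yolk sac. Srebf1, a regulator of lipid synthesis, and Abr, a regulator of small GTPases, had ratios of 3.47 and 3.81. Single cells moved these 4 by more than 1.5-fold: without yolk sac cell 2 Samd9l went from 3.62 to 4.54, without yolk sac cell 3 Irgm1 went from 3.55 to 4.32 and Srebf1 to 4.12, and without liver cell 15 Abr went to 3.04. Samd9l, Irgm1 and Srebf1 stood at 5.17, 6.24 and 5.65 without the 4 cells of over 9000 genes. Toward yolk sac, Rasgef1b, an exchange factor induced by inflammatory stimuli, led with a ratio of -6.04, with 160 CPM in 12 yolk sac cells against 1.44 in 4 liver cells, and -6.80 without liver cell 12. Abcc5, a nucleotide exporter, and Entpd6, a nucleotide phosphatase, had ratios of -5.10 and -5.21.

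Few genes were present in one group and wanting in the other. By the rule of a read in at least 50% of one group and in at most 1 cell of the other, yolk sac cells lacked 3 genes (0.0246% of those measured) and liver cells 55 (0.452%). The 3 were Abcg1, a sterol exporter read in 9 of 15 liver cells and 1 yolk sac cell, and the predicted genes Gm15545 and Gm34703, named here after their values were seen. The ratio of Abcg1, 3.23, was 2.37 without liver cell 9 and 4.19 without yolk sac cell 7. Of the 55, 6 had no read in any liver cell, and 32 of the other 49 were read in liver cell 1, the liver cell with 10509 genes. Without that cell the count was 170, and 88 without liver cell 2. It was 18 to 35 when any 1 of yolk sac cells 1 to 7 was left out, with 18 for yolk sac cell 1. The count of 3 became 5 to 9 when a single liver cell was left out, with 9 for liver cell 12 and liver cell 4 as the exception. With 1 liver cell fewer the 50% rule also asks for fewer liver cells, which by itself can raise this count. Both counts thus depended on single cells and on where the 50% falls in groups of this size. Among the 55 were Nr4a2 and the RIKEN gene G530011O06Rik, read in 12 yolk sac cells each, and Ccne2 and Cdc25a, a phosphatase that starts the cell cycle, in 11 each. Cdc25a stood at 24.97 CPM in yolk sac and 1.06 in liver, all in liver cell 13. App, the amyloid precursor, was read in 9 yolk sac cells and 1 liver cell, with a ratio of -2.53 that was -4.22 without liver cell 1.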

How the data were processed

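Single cells were profiled by RNA sequencing after SMART-Seq cDNA synthesis, and the authors deposited whole-number read counts per gene, 1 column per cell. FastQC, Trimmomatic 0.36, STAR, HTSeq and the build mm10 are named in the submitters' processing notes, without role or order; strand setting and annotation are not given in the sources used here. All 96 columns matched a label.

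Rows with the same symbol were summed (19949 rows to 19836 genes), and cells with under 2000 genes were left out, as were genes with under 30 reads over both groups. Pooled CPM, log2 ratios with 1 CPM added, exact 95% Poisson and Clopper-Pearson intervals, and floors of 3 reads or 3 cells were computed with Python 3.11.15, pandas 2.3.3 and SciPy 1.17.1. A fold against 0 reads is a lower bound against 3 reads over the group. Shared genes had a read in 75% of both groups and a ratio under 2-fold. No doublet caller was run, since wells were sorted to hold 1 cell. Coordinates are from GENCODE M21 (GRCm38, the same assembly as mm10).

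Named genes were the sort genes, at most 5 members past the stricter call and 4 shared members per list, the 10 widest ratios in each direction past the stricter call (a read in 50% of the higher group, at most 50% of its reads in 1 cell, no predicted gene), and at most 10 genes per lacking class; other list members are given as examples. Some genes that the rule names are counted in their lists but not reported here by name. Members and lists were chosen with earlier results of these data known. The calculation was tested on simulated counts. Alternatives were no minimum and 3000 genes per cell, the mean of single-cell CPM, thinned reads, 10 CPM added, median-of-ratios scaling, totals without globin, mitochondrial and ribosomal protein genes, no minimum on reads, leaving out the cell with most reads in each group, or any 1 cell, and detection at 10 CPM. Leaving out the 4 cells of over 9000 genes was chosen after seeing the data.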

Additional observations from a re-analysis of the deposited data

Results flagged for a closer look

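Liver cell 8, left out with 1011 genes and 250235 reads, carried signal that no compared cell did. Its 10 macrophage genes summed to 19306 CPM, against at most 322 in the compared cells, with C1qc at 7925 CPM and C1qb at 7917. The sum of globin genes was 13399 CPM, against at most 2217, with all 7 globin genes read. Higher than in any compared cell were also the sums of leukocyte genes (13228 CPM), interferon genes (9707), myeloid genes (5910), homing receptors (3757), venous and lymphatic genes (2430, all from 1 gene) and megakaryocyte genes (1515, from 1 gene). None of the 6 sort genes had a read in that cell, nor did any replication or immediate-early gene.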

How the results depend on the processing

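No paired analysis was possible because the cell numbers in the labels only name cells and no test was made. With 10 CPM added in place of 1, 1316 genes were past 2-fold higher in liver and 1057 in yolk sac, against 2947 and 2852, and listed genes higher in yolk sac numbered 54 in place of 99. The genes that yolk sac cells lacked, 3 in all, became 8 with at least 3000 genes per cell, 5 with thinned reads, 6 without the deepest cell of each group, 1 with detection at 10 CPM and 21 without the cells of over 9000 genes. Of named genes past 2-fold, Ephb4 turned to 0.64 without those cells and Il7r to 0.19 without yolk sac cell 5. Genes near a ratio of 0 turned too, among them Cdkn1c (0.20) and Mki67 (-0.03) without those cells, and Meis1 (-0.05), Dlk1 (0.15) and Pf4 (-0.20) with thinned reads. With each cell left out in turn, genes higher in liver numbered 2828 to 3073 and in yolk sac 2685 to 3094, shared genes 1416 to 1643, genes that yolk sac cells lacked 3 to 9, genes that liver cells lacked 18 to 170, and listed genes 69 to 81 toward liver and 90 to 105 toward yolk sac. Median-of-ratios scaling moved the median of all genes from 0.05 to -0.05. With 15 and 16 cells, a gene with a read in 0 cells may be read in up to 20% or 18.75% of cells (3 of 15 or 16), and its expression is not limited by this, and differences between animals are not covered.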
